A study of Homo sapiens with 6 samples.

Results

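The genes described here are the secretory granule and synaptic genes SCG2, SYP, CHRNB2, SCG5, CHGA, CHGB, VGF, PCSK1 and SNAP25, together with REST, the repressor of neuronal genes. They were measured in MDA-MB-231, an established human breast cancer cell line of the triple-negative type, in which NEK2 had been silenced with pooled siRNAs (si-NEK2), and in cells given a non-targeting control (si-CTRL). All 10 genes were found by symbol among 74852 listed genes, and 9 of them passed the filter of a mean of 10 normalized counts that left 18717 genes for testing. SCG2, SYP and CHRNB2 were chosen by their strong rise in si-NEK2, so their values are a description with no test. The other 7 were added by function, but with earlier results of these data known, so that their p-values are no independent evidence.

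Granins such as SCG2, CHGA and CHGB are acidic proteins that are packed into the dense-core granules of neuroendocrine cells together with peptide hormones and their processing enzymes. Synaptic vesicles carry synaptophysin (SYP) in their membrane and fuse with the plasma membrane through SNARE proteins such as SNAP25. REST is a zinc-finger protein that binds the RE1 element in many neuronal genes and recruits histone deacetylases and demethylases through the corepressors SIN3A and RCOR1, and it is known for keeping such genes low outside neurons.

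Poly(A)+ RNA was sequenced from 3 libraries of each group, all from MDA-MB-231 cells, and the question was how loss of NEK2, a mitotic serine/threonine kinase, changed gene expression. The sample records describe transfection in repeated rounds and harvest 24 h after the second. The methods of the study give a longer time, counted from transfection, and describe triplicates. The starting points differ, so whether both times are the same moment is not known. Whether the 3 libraries of a group came from separate cultures is not stated, so the p-values measure the spread between these libraries, which may be technical. With 1 pool of siRNAs in each group, the loss of NEK2 and any other effect of the pool cannot be told apart. The si-CTRL sample records point to other sample records unlike those of si-NEK2. It is not stated if the libraries of the groups were made and sequenced together, so such a difference and the silencing cannot be told apart either. In bulk RNA, the same holds for fewer or more expressing cells and less or more RNA per cell.

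The libraries held 52625492 to 87454509 reads assigned to genes, and 1 read was worth 0.818 to 1.25 normalized counts. The targeted gene NEK2 was at 3702, 3323 and 3290 normalized counts in si-CTRL replicates 1, 2 and 3 and at 284, 362 and 388 in si-NEK2, so that 10.0% of it remained. On the second principal component, which held 16.2% of the variance, si-CTRL replicate 1 was the most extreme library, at 38.9. Next came si-NEK2 replicate 3, at 16.9, and the remaining libraries lay between -26.1 and -4.12. Values without si-CTRL replicate 1 are given below where they change the call of 1 of the 10 genes. The mesenchymal marker VIM was abundant in both groups (mean of 157264 normalized counts in si-CTRL), while the luminal hormone receptors ESR1 and PGR were at means of 8.22 or lower, as were the neuronal marker RBFOX3 and the epithelial genes EPCAM and CDH1. COL1A1, a collagen of fibroblasts, was also abundant, at 160257 normalized counts in si-CTRL and 141499 in si-NEK2. The markers looked at held 23 gene rows, of which 16 passed the filter. Among these, PTPRC passed the filter through si-NEK2 alone and PECAM1 through si-CTRL alone. Both were listed as absent or low in this cell line, and neither passed both thresholds for a difference.

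The sequences that bear on these genes are the RE1 element and the cyclic AMP response element TGACGTCA, which is bound by CREB proteins. RE1 was searched as its left part CAGCACC followed, after any 2 bases, by its right part GGACAG, on both strands of the protein-coding transcripts of GENCODE v29 (GRCh38). Among the 10 genes, a match with no mismatch in the 13 fixed bases was found in CHRNB2 alone, in its first exon within the 5′ untranslated region, at chr1:154567956-154567970 on the strand of the gene. VGF held a match with 1 mismatch in its 5′ untranslated region in exon 1, at chr7:101165561-101165575, and another in the coding sequence in exon 2, at chr7:101164586-101164600, both on the strand opposite to the gene. The sites are shown because they are the only such matches among the 10 genes, and the capitals mark the 13 fixed positions.
CHRNB2: CAGCACCacGGACAG
VGF exon 1: CAGCACGctGGACAG
VGF exon 2: CAGCACCgcGGCCAG
A match with no mismatch was present in 71 of 19669 protein-coding genes (0.361%), and a match with at most 1 mismatch in 670 (3.41%). A match is a description of letters and not of binding, and the search covered exons only.

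RefSeq promoters (GRCh38.p14, 250 bases before to 50 bases after a start) were available for 7 of the 10 genes, with 9 promoters in all, and not for SCG2, CHGB and SNAP25. TGACGTCA, which reads the same on both strands, was present in the promoters of CHGA, VGF and PCSK1, and in 1.85% of all 35116 promoters. Its shorter form TGACG, which lies inside TGACGTCA and was searched on both strands, occurred in 24.6% of all promoters. The TATA letters TATAAA occurred on either strand in 11.5% of all promoters, and among these genes in those of VGF and PCSK1. The 100 bases before the start are shown for the 3 promoters with TGACGTCA and, since they were without it, for those of SYP and CHRNB2. They are written in the direction of the gene, and the capitals mark the CREB element, its short form, the TATA letters in either direction and, at the end of the VGF stretch, the part of its RE1 match that lies before the start.
CHGA: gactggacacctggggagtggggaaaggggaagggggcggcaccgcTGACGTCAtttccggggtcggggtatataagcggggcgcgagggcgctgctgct
VGF: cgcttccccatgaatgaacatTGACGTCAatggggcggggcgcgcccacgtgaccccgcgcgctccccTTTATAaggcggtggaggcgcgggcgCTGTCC
PCSK1: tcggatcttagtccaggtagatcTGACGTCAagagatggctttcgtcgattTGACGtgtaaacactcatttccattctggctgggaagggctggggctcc
SYP: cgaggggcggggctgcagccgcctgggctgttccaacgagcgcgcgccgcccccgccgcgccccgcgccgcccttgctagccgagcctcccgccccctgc
CHRNB2: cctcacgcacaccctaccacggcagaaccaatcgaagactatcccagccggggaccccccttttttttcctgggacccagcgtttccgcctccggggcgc
They lie at chr14:92923050-92923149 on the plus strand for CHGA, at chr7:101165570-101165669 on the minus strand for VGF, at chr5:96433249-96433348 on the minus strand for PCSK1, at chrX:49200194-49200293 on the minus strand for SYP and at chr1:154567678-154567777 on the plus strand for CHRNB2. The PCSK1 stretch belongs to the upstream one of its promoters, and TATAAA was found in the other.

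SCG2 (secretogranin II; hg19 chr2:224461660-224467217), the granin that is the precursor of the peptide secretoneurin, was the most abundant of the 10 genes per kilobase of exon in both groups. It was at 2687, 2475 and 2524 normalized counts in si-CTRL replicates 1, 2 and 3, and at 15191, 15909 and 16204 in si-NEK2. The groups were far apart and each was tight, with means of 2562 ± 111 and 15768 ± 521 (SD, n = 3). The log2 fold change was 2.62 (SE 0.06), a 6.15-fold difference, and it lay between 2.49 and 2.66 over 17 other ways of processing the values.

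SYP (hg19 chrX:49044265-49056661), the membrane protein of synaptic vesicles that serves as a clinical marker of neuroendocrine tumours, started from a low level. The si-CTRL libraries held 16.2, 26.2 and 28.5 normalized counts and the si-NEK2 libraries 200.5, 195.2 and 201.6. Every si-NEK2 library was above every si-CTRL library, and the 3 si-NEK2 values were close to each other. The means were 23.6 ± 6.51 and 199.1 ± 3.43 (SD, n = 3), for a log2 fold change of 3.06 (SE 0.22). Only 13 to 30 reads lay behind each si-CTRL value, against 189 to 245 in si-NEK2, so the size of the difference is limited by the control counts. SYP-AS1, the antisense gene that overlaps SYP over 1364 bases, had 0 reads in every library.

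CHRNB2 (hg19 chr1:154540257-154552351), the β2 subunit that pairs with α subunits in the nicotinic acetylcholine receptors of the brain, was nearly absent from si-CTRL. Its si-CTRL values of 5.0, 7.75 and 5.70 normalized counts came from 4, 8 and 6 reads, whereas si-NEK2 had 97.4, 88.6 and 106.7. The gene passed the filter through the si-NEK2 libraries, since its si-CTRL mean of 6.15 ± 1.43 (SD, n = 3) lay under the minimum. The log2 fold change was 3.80 (SE 0.26) on the scale of log2(value + 1), or 13.9-fold, and the ratio of the means was 15.9. It ranged from 3.21 with a pseudocount of 5 to 4.03 after quantile normalization. ADAR, an abundant gene whose end lies 2185 bases from that of CHRNB2 on the opposite strand, went from 14589 to 17065 normalized counts (log2 fold change 0.23, SE 0.07).

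Among the 7 genes that were not chosen by their values, 6 could be tested and 3 passed both thresholds, an unadjusted p up to 0.05 and a difference of 1.5-fold or more. CHGB and VGF were higher, against 8.23% of all tested genes, and REST was lower, against 14.3%. In either direction 22.5% of the tested genes passed, 1541 higher and 2672 lower. When the libraries were scaled to equal totals, the median over all genes moved from 0.01 to -0.11 and the split became 942 higher and 3474 lower, and with that scaling or upper-quartile scaling only 1 of the 7 was higher and 1 lower. The groups did not overlap for 2 of the 6 tested genes, CHGB and REST, whereas 55.0% of all tested genes had groups that did not overlap. These shares come from a set written with results known, and nothing is read from them.

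**Figure D1:**
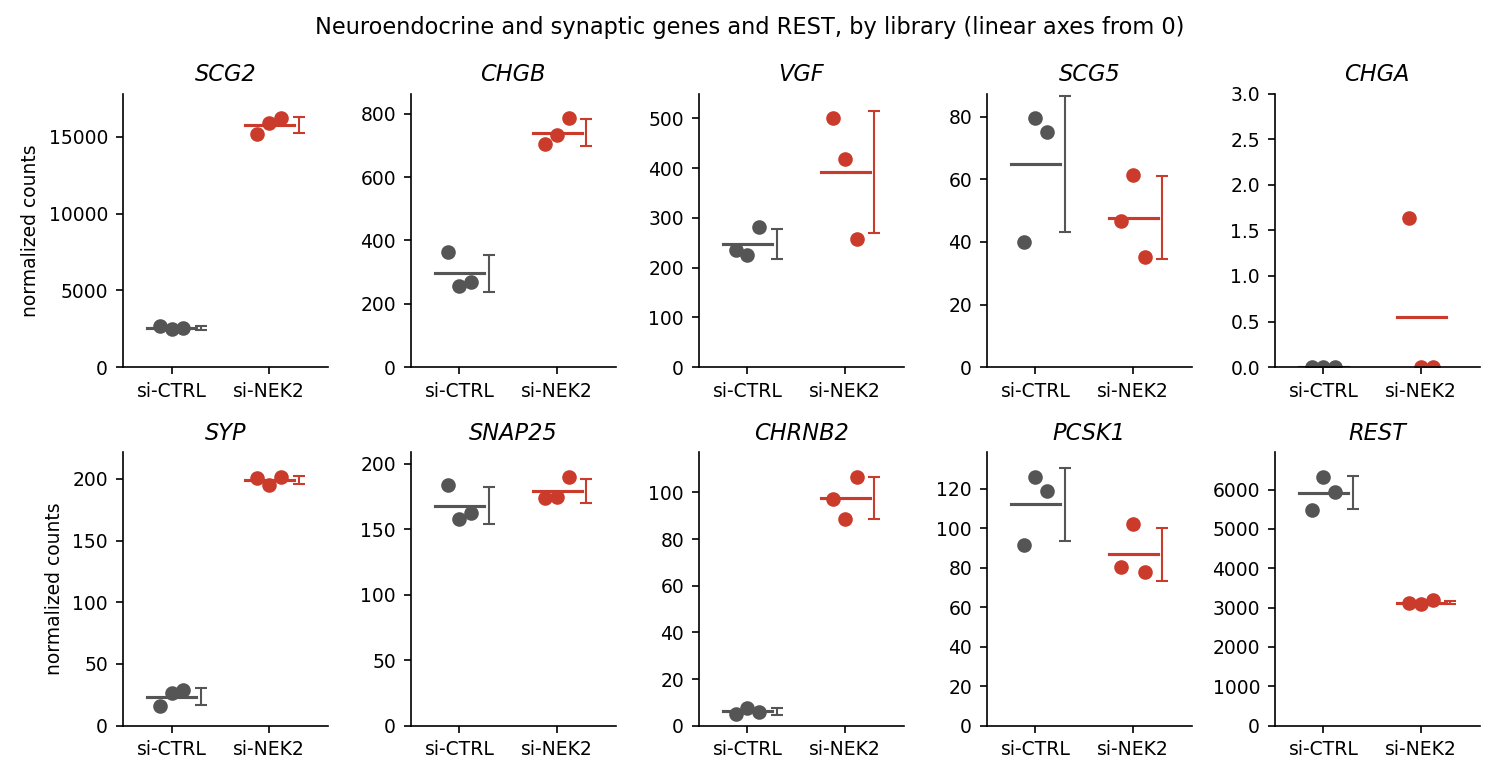
Normalized counts (vertical axes, linear and starting at 0) of the 10 genes in the 3 si-CTRL libraries (grey) and the 3 si-NEK2 libraries (red), with a dot for each library, a horizontal line at the mean and a bar of ± 1 SD, which is left out for CHGA. SCG2, SYP, CHRNB2 and CHGB lie higher and REST lower in every si-NEK2 library, while VGF, SCG5, SNAP25 and PCSK1 overlap between the groups and CHGA had reads in 1 library alone.

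CHGB (chromogranin B; hg19 chr20:5891974-5906003) is a granin that is stored with CHGA in the granules of adrenal chromaffin cells. Its si-CTRL values were 364, 255 and 269 normalized counts, and its si-NEK2 values were 703, 732 and 785. All 3 si-NEK2 libraries were above all si-CTRL libraries, at means of 740 ± 41.7 against 296 ± 59.2 (SD, n = 3). The log2 fold change was 1.34 (SE 0.14; limma adjusted p = 0.000151), and CHGB stayed past both thresholds in all 17 alternatives, between 1.21 and 1.49.

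CHGA (chromogranin A; hg19 chr14:93389445-93401636), the granin measured in blood as a marker of neuroendocrine tumours, was not detected in 5 of the 6 libraries. Replicate 1 of si-NEK2 had 2 reads and every other library 0, which allows up to 3 reads in each. CHGA was therefore not tested, and no difference was detectable at this depth.

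VGF (hg19 chr7:100805791-100808876), the precursor of several neuropeptides and a gene induced by nerve growth factor, was more variable. The 3 si-CTRL libraries were at 235, 225 and 281 normalized counts, and si-NEK2 replicates 1, 2 and 3 were at 500, 419 and 258. The groups overlapped, because si-NEK2 replicate 3 was below si-CTRL replicate 3. The means were 247 ± 30.2 and 393 ± 123 (SD, n = 3), and the log2 fold change was 0.62 (SE 0.22). Its p of 0.0226 in limma passed the threshold, and its limma adjusted p was 0.0519. The call did not hold with 6 of the 17 alternatives, and left-out libraries moved the estimate from 0.42 without si-NEK2 replicate 1 to 0.89 without si-NEK2 replicate 3. Leaving out si-CTRL replicate 2 gave 0.56 and leaving out si-NEK2 replicate 2 gave 0.55, both under the fold threshold.

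SCG5 (the chaperone 7B2, which holds the convertase PCSK2 until it is active; hg19 chr15:32933870-32989298) was at 40.0, 79.4 and 75.1 normalized counts in si-CTRL and at 46.6, 61.5 and 35.2 in si-NEK2. The groups overlapped, since the lowest si-CTRL library lay between the si-NEK2 libraries. The log2 fold change was -0.41 (SE 0.31; limma adjusted p = 0.326), which did not pass. Without si-CTRL replicate 1 it was -0.72 with an adjusted p of 0.0431 and passed, the adjusted p over all alternatives being 0.0431 to 0.655.

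PCSK1 (prohormone convertase 1, which cuts prohormones inside granules; hg19 chr5:95726040-95768985) had 91.2, 125.9 and 118.8 normalized counts in si-CTRL and 80.2, 102.1 and 77.9 in si-NEK2. Again the groups overlapped at si-CTRL replicate 1, the lowest of the controls. The log2 fold change of -0.36 (SE 0.19; limma adjusted p = 0.149) did not pass, and it was -0.50 without that library, which is under the fold threshold.

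SNAP25 (the SNARE of the neuronal plasma membrane; hg19 chr20:10199446-10288067) was at 183.7, 157.9 and 162.6 normalized counts in si-CTRL and at 173.5, 174.4 and 189.9 in si-NEK2. The groups overlapped, and the log2 fold change was 0.09 (SE 0.12; limma adjusted p = 0.575), turning to -0.03 when libraries were scaled to equal totals. SNAP25-AS1 overlaps SNAP25 over 709 bases on the opposite strand. It is not stated whether reads were counted by strand, so reads in such overlaps cannot be assigned with certainty.

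REST (hg19 chr4:57774042-57832974) was abundant in control cells and fell in si-NEK2. Its si-CTRL values were 5494, 6324 and 5944 normalized counts, and its si-NEK2 values were 3119, 3088 and 3183. The groups did not overlap and the 3 si-NEK2 values were nearly equal, at a mean of 3130 ± 48.2 against 5920 ± 415 (SD, n = 3). Thus 52.9% of REST RNA remained, a log2 fold change of -0.92 (SE 0.07; limma adjusted p = 3.41e-05) that lay between -1.05 and -0.87 over the 17 alternatives and passed in each. NOA1, a mitochondrial GTPase gene on the opposite strand that shares 3465 bases with REST at its end, went the other way, from 687 to 1124 normalized counts (log2 fold change 0.71, SE 0.09; limma adjusted p = 0.00037). Reads in the shared stretch could be counted for either gene, and their part in both values was not tested. Values of RNA say nothing of the amount of REST protein.

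**Figure D2:**
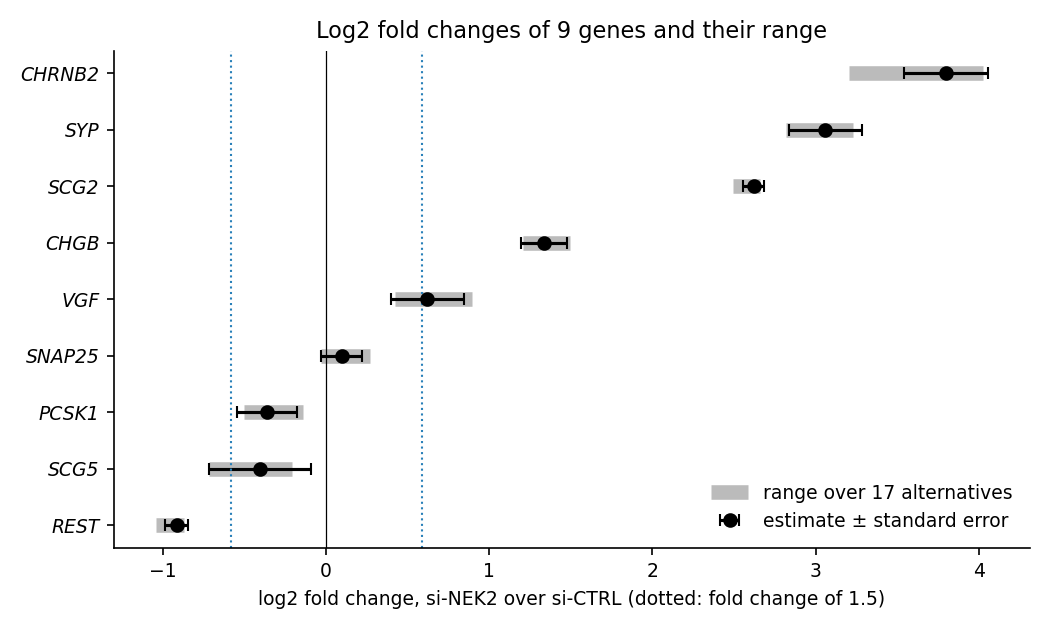
Log2 fold change of si-NEK2 over si-CTRL (horizontal axis) for the 9 genes that could be tested, with a point for the estimate, a black bar of ± 1 standard error and a grey band for the range over 17 alternatives; dotted lines mark a fold change of 1.5. CHRNB2, SYP, SCG2 and CHGB stay to the right and REST to the left of the dotted lines under all alternatives, whereas VGF crosses the right one and SCG5 the left one.

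Per kilobase of exon (union of GENCODE v29 exons), SCG2 led the 10 genes in si-CTRL with a mean level of 942 normalized counts per kilobase, followed by REST with a level of 742. VGF had a level of 91.4, CHGB 65.2, SNAP25 50.1, SCG5 29.5, PCSK1 21.1, SYP 4.53 and CHRNB2 1.04 normalized counts per kilobase, and CHGA was at 0. Of these neighbours, SCG5 and PCSK1 overlapped in their libraries. In si-NEK2 the level of SCG2 was 5799 and that of REST 392 normalized counts per kilobase. CHGB, at a level of 163, and VGF, at 145, overlapped, and SNAP25 followed at 53.4. SYP came next with a level of 38.2 normalized counts per kilobase, above SCG5 at 21.8, CHRNB2 at 16.6 and PCSK1 at 16.3, of which the last 3 overlapped. CHRNB2 thus moved from a level far below PCSK1 to one within its range.

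The genes on either side were compared to see whether the named genes differed from their surroundings. AP1S3, a subunit of a clathrin adaptor that lies 149198 bases from SCG2, was also higher, at a log2 fold change of 0.84 (SE 0.11; limma adjusted p = 0.000452), which is below that of SCG2. PRICKLE3, 1411 bases from SYP, was at 0.20 and UBE2Q1, next to CHRNB2, at 0.10, and neither passed. ANKEF1, next to SNAP25, was lower by a log2 fold change of -1.05, and POLR2B, which lies beyond the end of REST on the same side as NOA1, was at 0.46, under the fold threshold. No test of a named gene against its neighbour was made.

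**Figure D3:**
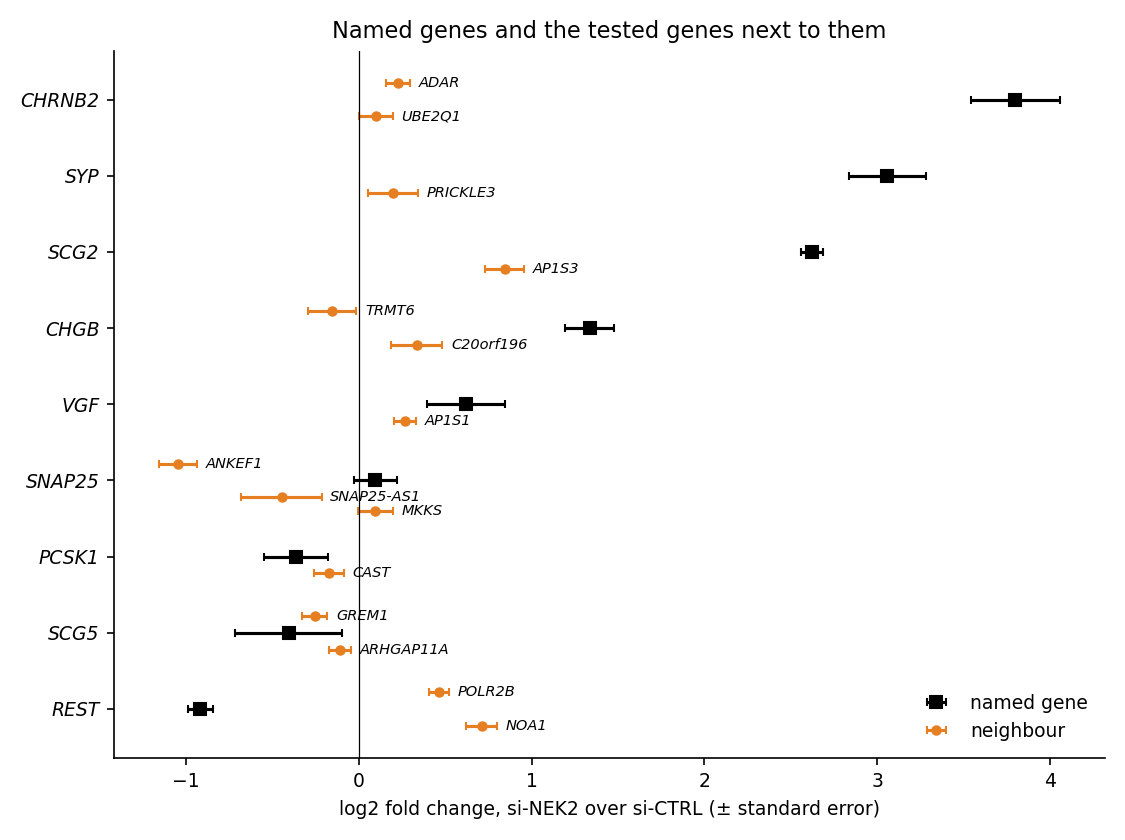
Log2 fold change of si-NEK2 over si-CTRL (horizontal axis, bars of ± 1 standard error) for the 9 tested genes (black squares) and the tested genes next to or overlapping each (orange points). SCG2, at 2.62, lies beside AP1S3 at 0.84, and REST, at -0.92, lies on the other side of 0 from NOA1 at 0.71 and POLR2B at 0.46.

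The genes with the most similar relative profile over the 6 libraries were searched among 12092 candidates, by the root mean square difference of their log2 values after centring. For SCG2 these were FGFBP1, a carrier of fibroblast growth factors, at a difference of 0.0955, then ID4, an inhibitor of helix-loop-helix factors, at 0.157, and CREB3L3 at 0.157. FGFBP1 went from a mean of 33.5 to 208 normalized counts and ID4 from 103 to 576. For SYP the nearest was SLITRK6, a membrane protein of neurons, at 0.223, before ZBED6CL at 0.265 and PRSS35 at 0.301. For CHRNB2 they were C11orf86 at 0.345, ALPP, which can share reads with near-identical phosphatase genes, at 0.389, and the scaffold protein NEDD9 at 0.461. REST was followed most closely by C14orf132 and UBTD2, both at 0.0312, and by the doublecortin-like kinase DCLK1 at 0.0364. Since these genes were picked by their likeness, their values are a description, and likeness over 6 libraries in 2 groups rests largely on a like difference between the groups.

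The genes that work with REST were counted against the 8.23% of all tested genes that were higher and the 14.3% that were lower. Of 34 tested corepressors and regulators, 2 rose (5.88%), 1 fell (2.94%) and 31 did not pass, with a median log2 fold change of 0.06 against 0.01 over all tested genes. KDM1A, the histone demethylase of the RCOR1 complex, rose from 11346 ± 88.3 to 19944 ± 919 normalized counts (log2 fold change 0.81, SE 0.06; limma adjusted p = 2.76e-05). CTDSP2, a small phosphatase that acts with REST, rose by a log2 fold change of 0.65, and GSE1, another part of the KDM1A complex, fell by 1.25 on the log2 scale. RCOR1 was at 0.17, SIN3A at 0.17, HDAC1 at 0.09 and HDAC2 at 0.11, none of which passed, and the histone methyltransferase EHMT2, at 0.57 with an adjusted p of 0.000189, was just under the fold threshold. SRRM4, the neural splicing factor that acts on REST RNA, had 0 reads in every library. With scaling to equal totals, 1 of these genes rose and 1 fell.

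Other neuronal genes known as targets of REST were counted next. Of 59 listed, 29 could be tested and 14 had 0 reads in every library. Among the tested, 6 rose (20.7%, against 8.23% of all tested genes), 1 fell (3.45%, against 14.3%) and 22 did not pass, and the median log2 fold change was 0.08. RUNDC3A, an effector protein of neurons, rose from 23.7 ± 3.04 to 103 ± 3.28 normalized counts (log2 fold change 2.07, SE 0.19; limma adjusted p = 7.16e-05). MAPK8IP2, a scaffold of JNK signalling, rose by a log2 fold change of 1.44, AP3B2, the neuronal subunit of an adaptor of vesicle coats, by 1.23 and SCN3B, a sodium channel subunit, by 0.78. BEX2 fell by 0.95 on the log2 scale. Of the tested genes, 1 passed the filter through si-NEK2 alone and was not among those that rose, and the split became 6 higher and 3 lower with upper-quartile scaling and 5 and 3 with equal totals. Leaving out si-NEK2 replicate 3 raised the number past both thresholds from 7 to 11.

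Genes with an exact RE1 match in their transcripts were counted without the 10 named genes, in a search added after the data were seen. Of 31 tested, 6 were higher (19.4%) and 4 lower (12.9%), with a median log2 fold change of 0.15. The largest log2 fold changes were 1.14 for FAT3 among the higher genes and -1.99 for TTC9B among the lower ones. SCN3B, already counted in the list of REST targets, was among the higher ones. With at most 1 mismatch, 37 of 432 tested genes were higher (8.56%) and 72 lower (16.7%). Of the 12023 protein-coding genes tested, 8.75% were higher and 13.4% lower. The median log2 fold change was -0.04 with at most 1 mismatch, against 0.05 for the protein-coding genes.

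Granule cargo and processing genes changed in both directions. Of 25 tested, 4 were higher (16%, against 8.23% of all tested genes) and 6 fell (24%, against 14.3%), and the median log2 fold change was 0.00. SCG3 and CPE, which are 2 of the 4, passed the filter through si-NEK2 alone, which fixed the direction of their difference. They are described without a test. Of the other 23, 2 rose and 6 fell. SCG3, a granin that brings others to the granule membrane, had 0, 7.75 and 7.61 normalized counts in si-CTRL and 42.6, 45.2 and 44.8 in si-NEK2. These came from 0, 8 and 8 reads against 52, 50 and 42, and the log2 fold change was 3.42 (SE 0.76). Carboxypeptidase E (CPE), which trims cut peptides, rested on 2 to 18 reads a library and had a log2 fold change of 1.36 (SE 0.53). BAIAP3, a protein of dense-core vesicle traffic, rose by 0.96 on the log2 scale. SYT7, a calcium sensor of exocytosis, fell with a log2 fold change of -1.53, as did PTPRN2, a granule membrane protein, with -1.40 and CADPS2, a priming factor of granules, with -1.30. CPZ also fell, but its row is shared with GPR78. PCSK2, the partner of SCG5, had 2 reads in 1 library and 0 in the others, and FURIN was at 0.22 and did not pass the fold threshold.

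Of 47 tested synaptic vesicle and SNARE genes, 9 rose (19.1%, against 8.23% of all tested genes), 6 fell (12.8%, against 14.3%) and 32 did not pass, with a median log2 fold change of 0.15. Without si-CTRL replicate 1, the split was 10 higher and 4 lower. Bassoon (BSN), a scaffold of the presynaptic active zone, rose from 308 ± 47.0 to 1041 ± 56.3 normalized counts (log2 fold change 1.76, SE 0.12; limma adjusted p = 2.24e-05). Complexin 1 (CPLX1) rose by 0.91 and synapsin I (SYN1), which tethers vesicles and is a known REST target, by 0.86 on the log2 scale, and STXBP3, a regulator of syntaxins, by 0.80. The SNAREs outside neurons were not alike: SNAP23 rose by 0.78, whereas STX3 fell by 1.17. The neuronal SNARE partners of SNAP25 fell, with log2 fold changes of -0.73 for STX1A and -0.73 for VAMP2. SYPL1, a relative of SYP found in most tissues, was at 0.39 and under the fold threshold.

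Among the other nicotinic receptor genes and their helpers, 6 of 20 in the file could be tested, 1 rose (16.7%, against 8.23% of all tested genes), 5 did not pass and the median log2 fold change was -0.20. The α4 subunit CHRNA4, the main partner of CHRNB2 in the brain, had 0 reads in every library. CHRNA5, an accessory subunit, was at 1809 ± 180 normalized counts in si-CTRL and 1738 ± 38.1 in si-NEK2 (log2 fold change -0.05, SE 0.09; limma adjusted p = 0.659). CHRNA7 was not analysed here.

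Neuroendocrine lineage factors and markers were also mixed. Of 24 tested, 5 rose (20.8%, against 8.23% of all tested genes) and 7 were lower (29.2%, against 14.3%), and the median log2 fold change was 0.00. Of the 7, 3 (FOXA2, PROX1 and NCAM1) passed the filter through si-CTRL alone, which fixed the direction of their difference. The other 21 tested genes held 5 that rose and 4 that fell. ID4, an inhibitor of helix-loop-helix factors and one of the genes most like SCG2, rose by 2.48 on the log2 scale. ID2 rose by 1.31, GFI1 by 0.72 and the pioneer factor FOXA1 by 1.16, the last from 826 ± 34.7 to 1851 ± 143 normalized counts. A count over this list is not a measure of neuroendocrine identity. Tyrosine hydroxylase (TH), the first enzyme of catecholamine synthesis, fell with a log2 fold change of -1.70, as did the neuronal factor POU4F1 with -1.24 and LHX2 with -1.12. The factor INSM1, which acts in the differentiation of neuroendocrine cells, had 0 reads in every library, and ENO2, a glycolytic enzyme used as a marker of such cells, was at 0.16 (limma adjusted p = 0.153). NEUROD1, whose row is shared with CERKL, was at 0.14 (limma adjusted p = 0.585).

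CREB proteins bind the element shown in the CHGA, VGF and PCSK1 promoters. In the list of 37 tested CREB factors, their regulators and genes driven by the element, 5 were higher (13.5%, against 8.23% of all tested genes) and 5 fell (13.5%, against 14.3%), and the median log2 fold change was 0.03. Of the 5 higher, 1 passed the filter through si-NEK2 alone. With equal totals 2 were higher and 6 lower. DIO2 rose by 0.87, ATF3 by 0.70, NR4A3 by 0.67 and the kinase SIK1 by 0.60 on the log2 scale. SALL1 fell with a log2 fold change of -1.38, CREB5 with -1.37, the phosphodiesterase PDE4A with -1.26 and PRKAR1A, a regulatory subunit of protein kinase A, with -1.05. CREB1 was at 0.26 and ATF1 at -0.37, both under the fold threshold. CREB3L3, named above among the genes most like SCG2, was not in the list and is not counted here. Its mean went from 20.9 to 131 normalized counts, a log2 fold change of 2.59. Without si-NEK2 replicate 1, 6 of the list passed in place of 10.

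**Figure D4:**
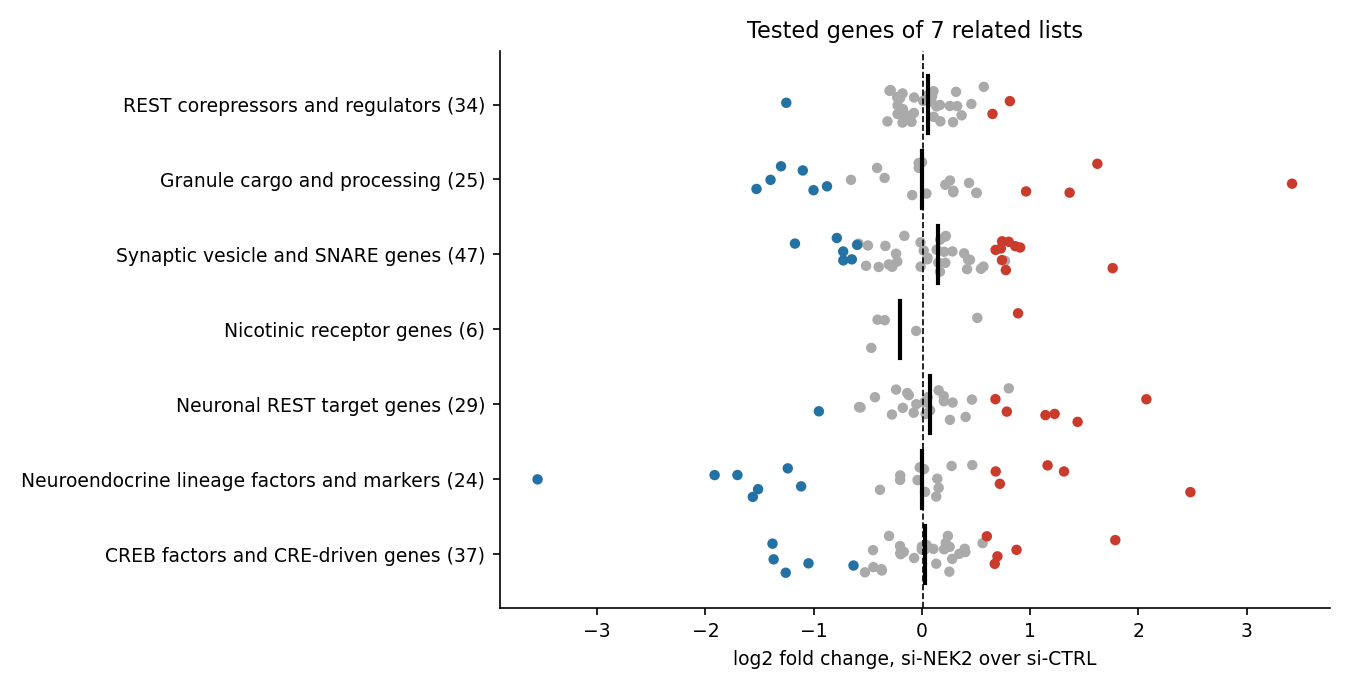
Log2 fold change of si-NEK2 over si-CTRL (horizontal axis) for each tested gene of 7 lists, with the number tested in parentheses; red points were higher and blue points lower past both thresholds, SCG3 and CPE among the red, grey points did not pass, vertical black bars mark the list medians and the dashed line the median of all tested genes, 0.01. The medians lie between -0.20 and 0.15, and the granule, synaptic and lineage lists hold both red and blue points. FOXA2, PROX1 and NCAM1 are among the blue points of the lineage list.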

How the data were processed

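MDA-MB-231 RNA was measured in 3 si-CTRL and 3 si-NEK2 libraries, grouped by their labels. The submitters' processing notes name FastQC, Picard, SAMtools, STAR 2.4.0, DESeq2 and hg19. The read counter and its strand setting are not given in the sources used here. The deposited table holds 1 signal value per gene and library, namely read counts that the authors divided by DESeq2 size factors (normalized counts). Whole reads were recovered for 100% of values (tolerance 0.01 reads).

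Genes whose mean reached 10 normalized counts were tested on log2(value + 1) with limma 3.58.1 (trend; R 4.3.3), calling a gene at an unadjusted p up to 0.05 together with a difference of 1.5-fold or more, as the study's methods do, and Benjamini-Hochberg adjustment over all tested genes; "rose", "fell", "higher" and "lower" refer to these thresholds. edgeR 4.0.16 and DESeq2 1.42.0 on the recovered reads, other pseudocounts (0.1 and 5), filters (none and 50), scalings, a replicate block and left-out libraries were alternatives. At these thresholds the study reported fewer genes regulated at the expression level from its own analysis, so the calls given here are not those of the study. The model scripts were tested on simulated data. The genes and lists were chosen with earlier results of these data known. From each list, genes past both thresholds were named, at most 4 in each direction by size, where the mean reached 50 and the groups did not overlap, together with genes named whatever their values; some genes that this rule names are not reported here. The search of transcripts for RE1 was added after the data were seen.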

Additional observations from a re-analysis of the deposited data

How the results depend on the processing

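REST, CHGB, VGF, SCG5, PCSK1, SYP, SCG2 and CHRNB2 kept their direction under all 17 alternatives, and REST and CHGB also stayed past both thresholds. SYP, SCG2 and CHRNB2 were chosen by their rise, so their direction is a description. The log2 fold change of SNAP25 turned to -0.0329 with scaling to equal totals, which moved the median of all genes to -0.115. VGF lost its call with upper-quartile scaling (0.554), equal totals (0.492) and limma without a trend, as well as without si-CTRL replicate 2, si-NEK2 replicate 1 or si-NEK2 replicate 2, and the 6 values with a left-out library ranged from 0.419 to 0.895. SCG5 passed without si-CTRL replicate 1, at -0.717. At a 2-fold threshold, 1637 genes passed, among them 1 of the 7 genes not chosen by their values, 1 corepressor, 2 synaptic genes, 4 neuronal REST targets, 5 CREB-related genes and 0 nicotinic genes. The nicotinic list had 2 calls with no filter, with equal totals and with quantile normalization, and 0 with a mean of at least 50 or with adjusted p-values. With left-out libraries its calls ranged from 0 to 2, those of the 7 genes from 2 to 4, those of the neuronal REST targets from 7 to 11 and those of the CREB list from 6 to 11. A count of genes with no filter was 5362 and with adjusted p-values 3852, against 4213.

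Replicate numbers are shared by the groups but deviations of same-numbered libraries did not correlate (-0.0910, 0.0469 and -0.147). With 3 libraries in each group, this cannot settle whether same-numbered libraries were prepared together. A fit with the replicate number as a block gave 4084 regulated genes and the same number, 3, of the 7 genes. edgeR and DESeq2 on the recovered reads gave 4205 and 4039. Depth limits CHRNB2, SCG3, CPE and CHGA, which had 0 to 12 reads in each si-CTRL library.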
